A study of Drosophila melanogaster with 2 samples.

Results

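Peaks of chromatin bound by tagged Escargot were examined at 8 genes that pattern the ectoderm of the Drosophila melanogaster embryo along its dorsoventral axis: short gastrulation (sog), tolloid (tld), brinker (brk), zerknüllt (zen), rhomboid (rho), ventral nervous system defective (vnd), intermediate neuroblasts defective (ind) and single-minded (sim). The 8 genes are among 13968 protein-coding genes of the annotation. A peak was assigned to a gene when that gene had the nearest protein-coding start site or when the peak's summit lay in the gene body. By this rule 6 of 4397 peaks belonged to the 8 genes, 3 to sog and 3 to brk. The chromatin came from whole embryos aged 0 to 24 h of a strain with an esg-eGFP transgene, in which escargot (esg) is fused to enhanced green fluorescent protein. Chromatin sonicated to 200 to 800 bp was precipitated through the tag, per the labels' description, although another label gives esg as the antibody. The samples form 1 group of 2 biological replicates, with no second genotype, treatment or age, and all of them carry the transgene. The labels describe the strain as an insertion that targets esg and do not state whether an untagged copy remains.

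The dorsoventral axis is set by a maternal gradient of nuclear Dorsal, which is highest ventrally and divides the embryo into mesoderm, neurogenic ectoderm and dorsal ectoderm. In the neurogenic ectoderm Sog, a secreted antagonist of the BMP ligand Decapentaplegic (Dpp), limits Dpp signalling, and the metalloprotease Tolloid cleaves Sog dorsally. Brinker is a repressor of Dpp target genes, and Zen is a homeodomain factor of the dorsalmost cells, the amnioserosa. Rhomboid is a membrane protease that releases the active EGF receptor ligand, Vnd and Ind are homeodomain factors of the ventral and intermediate neuroblast columns, and Single-minded is the bHLH-PAS regulator of the midline. Escargot is a zinc finger protein of the Snail family, whose founding member represses neurogenic ectoderm genes in the mesoderm. The age range runs from before this patterning to the end of embryogenesis, in all cells together. In such material fewer bound cells and less binding per cell cannot be told apart.

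Sequences are printed for the 2 strongest peaks of each gene, because they hold the highest signal and every match to the motifs searched. Each spans 100 bp on either side of the summit on the plus strand of dm6, 5′ to 3′, read from the RefSeq Release 6 assembly. Capitals mark matches on either strand to the Snail-family word CAGGTG, its neighbour CAGGTA, the word ACAGTG, the Notch pathway word GTGGGAA or the Dorsal pattern GGGNNNNCC. The gene sog lies on the minus strand, so its sequences are antisense to the gene, and brk lies on the plus strand.
sog 1, chrX:15622959-15623159: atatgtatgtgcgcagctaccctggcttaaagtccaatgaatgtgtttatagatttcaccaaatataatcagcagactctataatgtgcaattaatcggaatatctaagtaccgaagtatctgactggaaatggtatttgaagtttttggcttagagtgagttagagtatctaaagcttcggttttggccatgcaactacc
sog 2, chrX:15619402-15619602: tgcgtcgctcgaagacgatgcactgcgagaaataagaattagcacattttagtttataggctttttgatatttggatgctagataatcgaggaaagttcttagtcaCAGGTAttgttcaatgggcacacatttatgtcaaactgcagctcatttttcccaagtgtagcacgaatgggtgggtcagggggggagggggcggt
brk 1, chrX:7307024-7307224: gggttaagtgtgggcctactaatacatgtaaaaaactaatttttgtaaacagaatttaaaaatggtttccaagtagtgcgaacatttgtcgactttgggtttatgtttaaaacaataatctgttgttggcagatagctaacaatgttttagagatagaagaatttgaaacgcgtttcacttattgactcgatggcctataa
brk 2, chrX:7305795-7305995: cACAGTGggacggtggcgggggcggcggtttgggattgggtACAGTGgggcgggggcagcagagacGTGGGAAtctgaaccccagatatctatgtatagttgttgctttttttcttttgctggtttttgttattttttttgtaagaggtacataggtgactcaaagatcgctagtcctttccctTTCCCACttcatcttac
Of these 4 windows, those of sog 1 and brk 1 held no match, that of sog 2 held 1 and that of brk 2 held 4.

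A peak was present at 2 of the 8 genes, a share of 25%. Over all protein-coding genes 22.1% had at least 1 peak by the same rule, so the count lies near the background and is not a result about these genes as a set. Both genes with peaks are on the X chromosome, where 24.7% of the genes had a peak. The third X-linked gene of the set, vnd, had none. A count of at least 3 peaks, as at sog and at brk, was found at 3.13% of all genes. Both genes reach it only on the main list. Replicate 1 alone had 2 peaks at sog, and replicate 2 alone had 1 at brk. Replicate 1 alone had peaks at sog and brk (17.1% of all genes had one in that list), and replicate 2 alone had peaks at sog, brk and rho (18.3% of all genes). With 1 group and no control condition, none of these counts has a test. Each peak carries a signal value that the authors deposited, of unstated unit and unknown sequencing depth, and it is used here only to rank and describe peaks within a list.

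The gene sog occupies 30.15 kb on the minus strand (dm6 chrX:15603283-15633434), with a start site at 15626540 shared by the transcripts sog-RA and sog-RE and another at 15633434 for sog-RB. All 3 of its peaks lay in 1 intron of 10523 bp, the first of sog-RA and sog-RE and the second of sog-RB. They are numbered by signal, which here is also their order from the start site. The peak sog 1 (chrX:15622974-15623129) had its summit 3481 bp inside the gene and a signal of 225.6, rank 801 of 4397. Its signal was 105.8 in replicate 1 and 124.3 in replicate 2. The peak was high in both replicates and passed the reproducibility threshold in both lists.

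The peak sog 2 (chrX:15619459-15619551) had its summit 7038 bp from the start site and a signal of 161.3, rank 1294. It measured 81.3 in replicate 1 and 79.1 in replicate 2 and was on both lists. The peaks sog 1 and sog 2 were 156 and 93 bp long, shorter than the median of 336 bp over the list. The weakest of the 3, sog 3 (chrX:15615453-15615788), lay at 10919 bp with a signal of 92.0, below the median signal of 108.4 over all peaks. It had 38.0 in replicate 1 and 54.6 in replicate 2, and passed the threshold only in replicate 2. Neighbouring summits were 3557 and 3881 bp apart. Replicate 2 alone had 1 further peak in the same intron (chrX:15618001-15618324), 8377 bp from the start site, with a signal of 38.5 against 19.8 for the overlapping entry of replicate 1. No thresholded summit of any list lay within 500 bp of either sog start site. The nearest was sog 1, whereas 39.7% of all peaks lay within 500 bp of a protein-coding start site.

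The repressor gene brk spans 3.19 kb on the plus strand (chrX:7307939-7311132), and its 3 peaks all lay upstream of its single start site. None lay in its own gene body. They fell in the second intron, 73902 bp long, of the transcript CG1677-RB of the neighbouring gene CG1677, and in an intron of lncRNA:CR44357. The strongest, brk 1 (chrX:7306956-7307291), had its summit 815 bp from the start site and a signal of 223.3, rank 813, close behind sog 1. It measured 120.1 in replicate 1 and 109.5 in replicate 2, and it was on the lists of both.

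The other two brk peaks passed the threshold in replicate 1 only. The peak brk 2 (chrX:7305727-7306062), at -2044 bp relative to the start site, had a signal of 113.0 and rank 2089. Its 2 replicate values were 75.9 and 43.6, so the signal was lower in replicate 2. There it was a ranked entry with an irreproducible discovery rate (IDR) far above the limit of 0.01, at a -log10 of 0.13, and its summit lay 113 bp away. The peak brk 3 (chrX:7302277-7302612), at -5494 bp, had a signal of 66.7 and rank 3806, in the lowest part of the list. Replicate 1 gave it 40.4, with a -log10 of the IDR of 2.02, and replicate 2 gave it 27.6, with 0.29. It was missing from the other thresholded list of the series, which held brk 1 and brk 2.

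Replicate 1 held 2 further brk peaks that the main list did not have. One, at -6014 bp (chrX:7301773-7302076), had a signal of 46.5 against 17.5 in replicate 2. The other, at -596 bp (chrX:7307191-7307494), had a signal of 27.5 and overlapped brk 1. The brk count therefore differed between the replicates' own lists, with 5 peaks in replicate 1 and 1 peak in replicate 2, while sog had 2 and 4. On the main list, made from both replicates, brk 2 and brk 3 were the brk peaks thresholded in replicate 1 only.

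**Figure D1:**
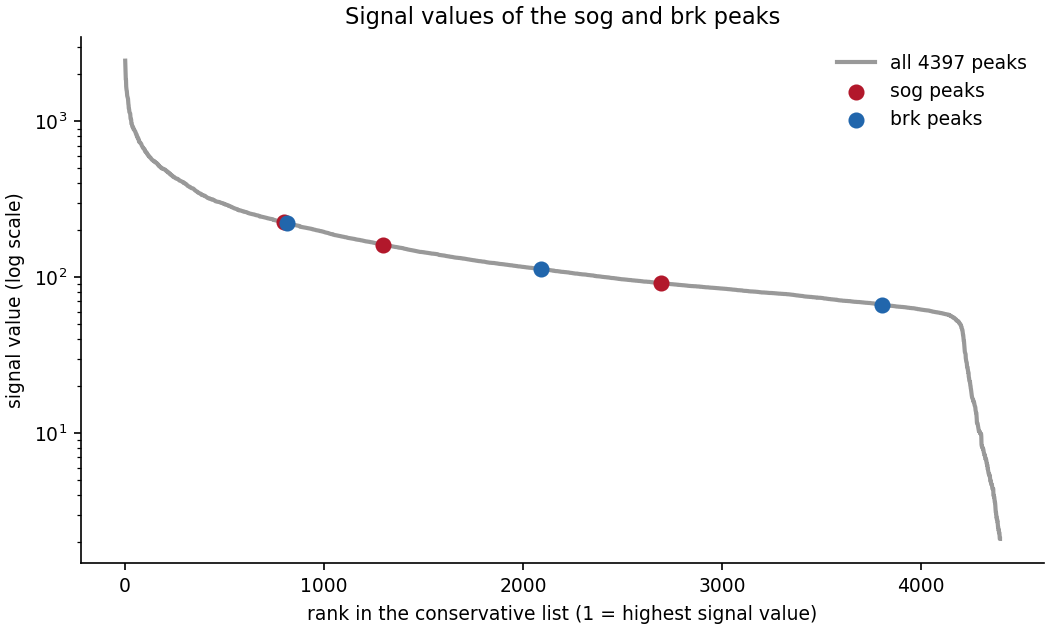
Signal value (log scale) of all 4397 peaks of the main list against their rank, where rank 1 is the highest. The sog peaks (red) and brk peaks (blue) run from rank 801 to rank 3806, and the strongest of each gene, at 225.6 and 223.3, nearly coincide.

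The 6 peaks ranged from rank 801, 18.2% down the list, to rank 3806, 86.6% down. Signals over the list reached 2451.6, so neither gene was among the most strongly bound. The peak directly above sog 1 had a signal of 225.7 and lay nearest to CycE, which encodes cyclin E, and the peak directly below had 225.6 and lay nearest to CG32982. At esg, the tagged gene itself, 4 peaks were present, the strongest with a signal of 130.6 and rank 1721, below sog 1, brk 1 and sog 2. Of the 6 peaks, 3 overlapped thresholded peaks of both replicates, a share of 50% (95% exact binomial interval 11.8 to 88.2, counting error only). The peaks lie close together at sog and brk and come from the same libraries. They are not independent, so the interval does not measure variation between genes or libraries. The same share over all peaks was 57.5%. All 6 overlapped ranked entries of both replicates, as did 99.0% of all peaks.

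**Figure D2:**
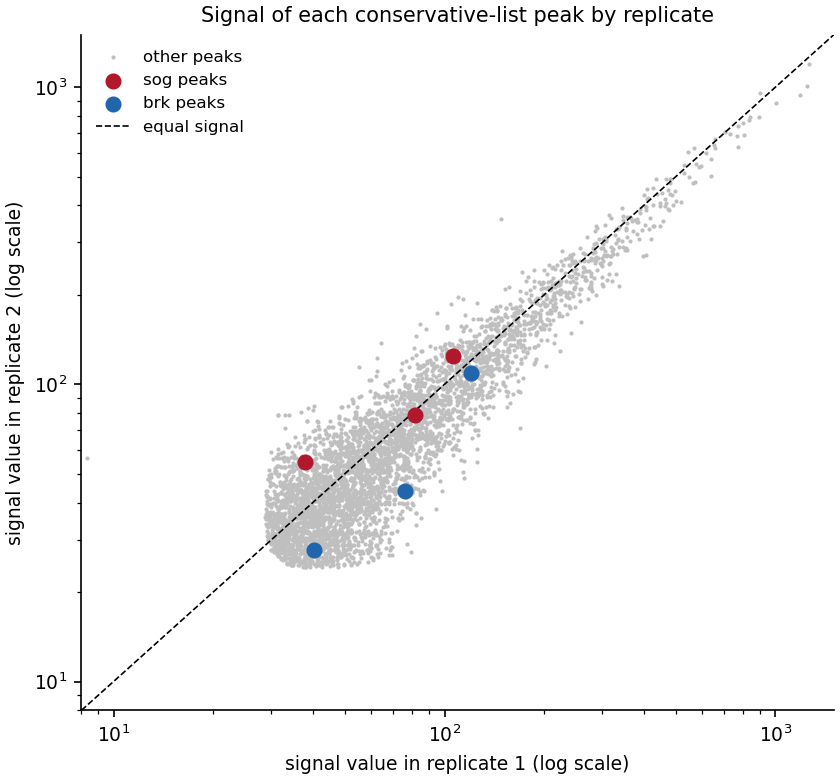
Signal value of each main-list peak in replicate 1 (x axis) and replicate 2 (y axis), both on log scales, with a dashed line of equal signal. The sog 1, sog 2 and brk 1 points lie close to the line, sog 3 lies above it at 38.0 and 54.6, and brk 2 and brk 3 lie below it.

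Among the sog and brk peaks, the replicate signals differed less at sog 1, brk 1 and sog 2 than at the weaker ones. The log2 ratio of replicate 1 to replicate 2 was -0.23 for sog 1, 0.13 for brk 1 and 0.04 for sog 2. It was 0.80 for brk 2, 0.55 for brk 3 and -0.52 for sog 3. Over 4355 peaks with an entry in both replicates the median was 0.12, and the middle 80% ran from -0.35 to 0.64. The brk 2 ratio was higher than those of 94.9% of all peaks, and only 4.85% had a lower ratio than sog 3. The other four lay within the middle range. With 1 value per replicate these differences have no test.

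The gene rho, which encodes the protease Rhomboid, had a thresholded peak in replicate 2 alone. That peak (chr3L:1464447-1464770) had its summit 798 bp downstream of the start site, in the first intron of rho, 1335 bp long, which also lies within the gene Ptp61F. Its signal was 48.6, rank 2423 of 3351, with a -log10 of the IDR of 2.53. In replicate 1 the overlapping entry had a signal of 19.6 and rank 21995 of 61170. The 2 replicates thus did not give the same call. In the ranked list that the main list came from, the entry at 698 bp had a signal of 70.0 but an IDR of 0.674. That signal is above the 66.7 of brk 3. In the other ranked list of the whole series the same entry had an IDR of 0.0199, also above the limit of 0.01.

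The threshold is on the IDR, so entries just outside it can have more signal than a peak just inside. In the ranked list that the main list came from, brk 3 was just inside, with an IDR of 0.00407. Just outside was a brk entry at -614 bp with a signal of 101.4 and an IDR of 0.0186, which overlaps brk 1. The next was an entry of sim, with 42.5 and 0.0349. An entry in the sog intron at 8376 bp, the site of the replicate 2 peak, had 60.5 and 0.574. The order differed in the other ranked list of the whole series. There brk 3 was just outside, with an IDR of 0.0103. The sog entry at 8376 bp had 0.0157 and the rho entry at 698 bp 0.0199. The brk entry at -614 bp and the sim entry were far outside, with 0.485 and 0.515.

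The ranked list that the main list came from held entries at 79.7% of all protein-coding genes, so an entry there is not evidence of binding by itself. It held 13 entries for sim, 18 for vnd, 12 for tld, 2 for zen and none for ind, against 17 for sog, 12 for brk and 13 for rho. Some entries overlap. With overlapping entries merged there were 9 regions for sim, 12 for vnd, 9 for tld and 1 for zen, against 11 for sog, 9 for brk and 9 for rho. Per 10 kb of territory, the span over which a gene is the nearest one, the counts of unmerged entries were 5.90 for sog and 7.39 for brk. These counts include entries assigned by gene body alone, such as a tld entry nearer to the start site of asp. They were 5.35 for sim, 7.61 for rho, 3.78 for vnd, 3.49 for zen and 7.10 for tld. The median gene with or without an entry had 5.32. The density of entries at sog and brk, with their 3 thresholded peaks each included, was thus inside the range of the other members.

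For sim, the midline regulator, the strongest entry (chr3R:13078281-13078616) was intergenic, downstream of the gene and 6050 bp from the nearest of its 3 start sites. Its signal was 42.5, rank 8136 of 59798, and it measured 25.1 in each replicate. The next, with 39.3, lay in a sim intron. Both replicates had the strongest sim entry at equal signal, but neither list passed it.

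For vnd, the regulator of the ventral column, the strongest entry (chrX:582244-582579) lay in the 5' UTR, 291 bp from the start site of vnd-RB. It had a signal of 41.5, with 24.0 in replicate 1 and 16.4 in replicate 2, and an IDR of 0.226. It was the strongest entry within 500 bp of a start site at any of the 8 genes. At the same distance the highest signals were 25.9 for brk, 21.7 for rho, 19.5 for zen, 11.7 for sim and 6.1 for sog, and ind and tld had no entry there in that list.

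For tld, the protease gene that acts on Sog, the strongest entries lay far upstream in introns of the related protease gene tolkin (tok). The first (chr3R:24738020-24738355), at -11543 bp, had a signal of 45.6, with 29.0 in replicate 1 and 14.7 in replicate 2. The second, at -8063 bp, had 41.3, with 16.0 and 17.9. In the tld gene body the strongest had 29.9, in a coding exon 2299 bp from the tld start site but nearer to that of asp.

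The 2 homeobox genes with the shortest gene bodies had the least signal. At zen the list from both replicates had 2 overlapping entries in a coding exon, with signals of 19.5 and 13.0. Neither replicate's own ranked list had an entry that overlapped them. Replicate 1 had 1 entry of 16.9 at -501 bp, and replicate 2 had none. At ind no entry was on any of the 4 ranked lists, a state shared by 10.2% of all protein-coding genes. In the main list the nearest summit to the ind start site was 29767 bp away and lay closest to Reck, with a signal of 183.6. For zen it was 5321 bp upstream, at a peak nearest to the maternal anterior determinant bicoid (bcd), with 127.8. For the others without a peak in the main list the distance in that list was 15670 bp (rho), 19299 bp (tld), 19475 bp (sim) and 27700 bp (vnd).

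**Figure D3:**
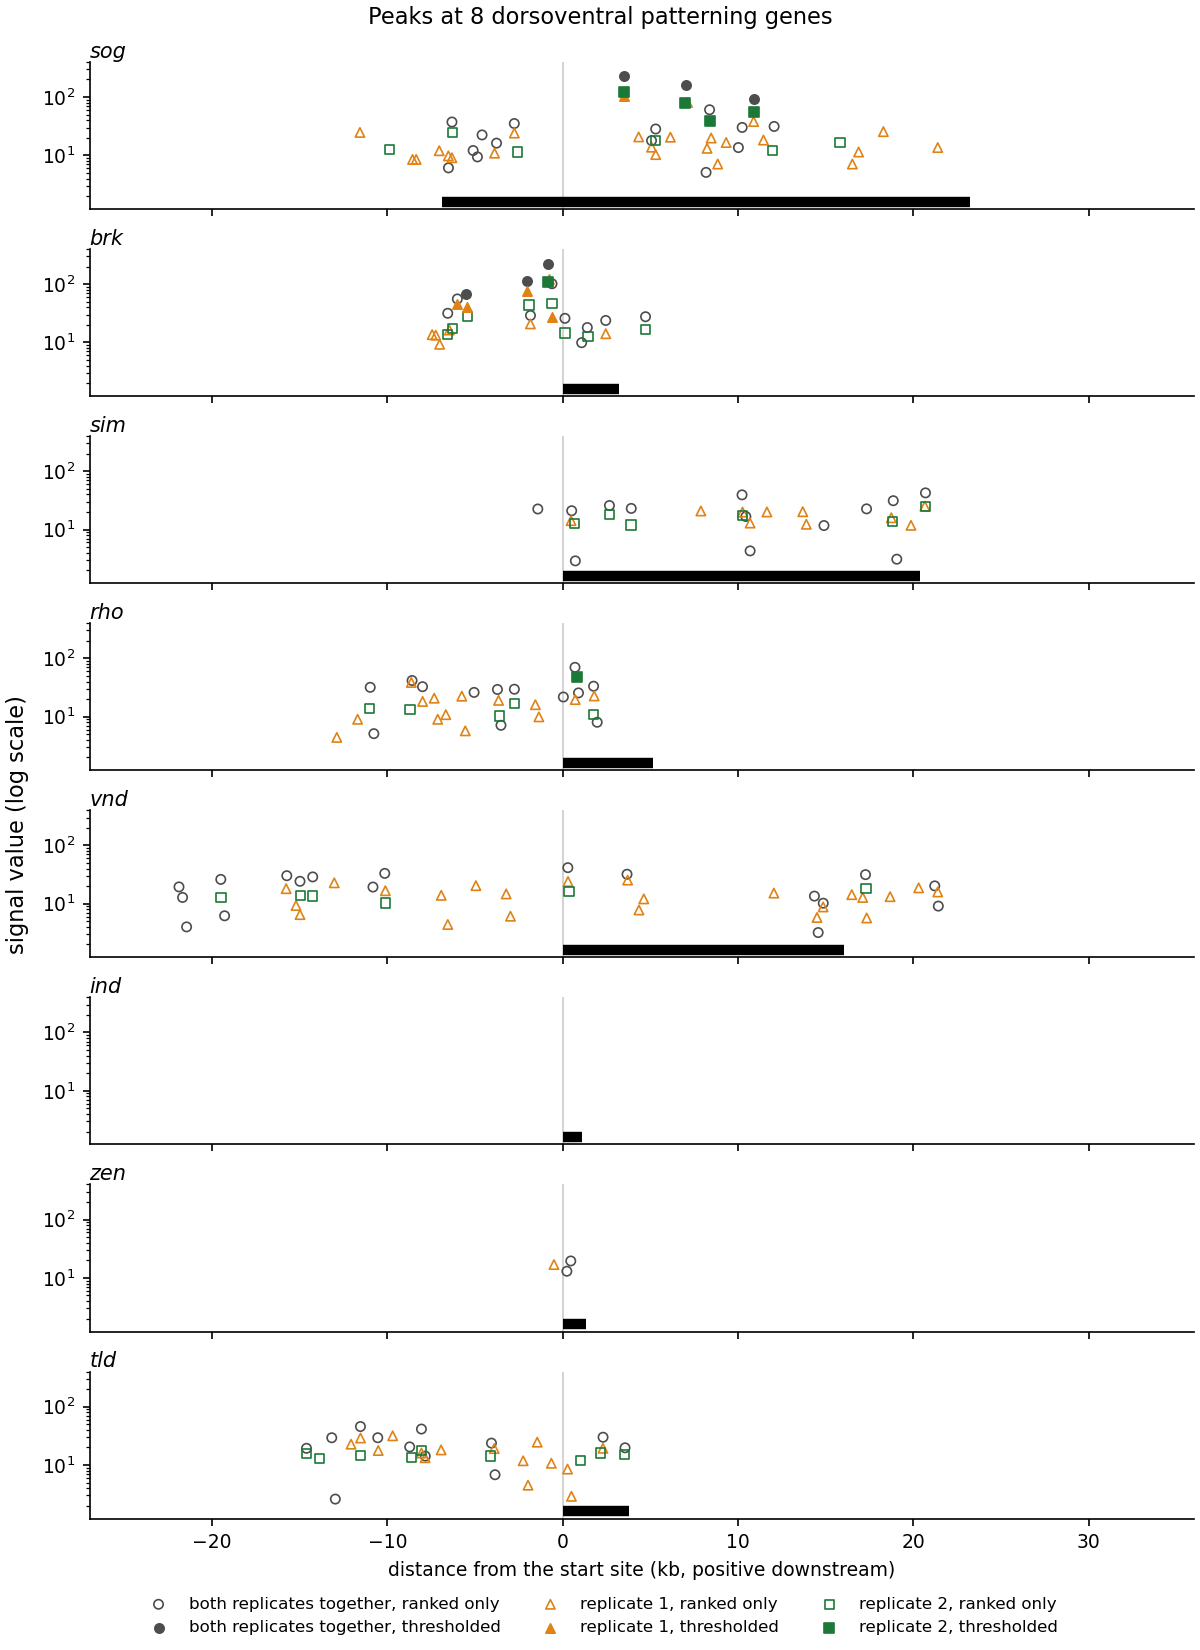
Entries at each of the 8 genes by distance of the summit from the start site in kb (x axis, positive downstream) and signal value (y axis, log scale); where a gene has several start sites, 0 is the one shared by most transcripts or else the first. Grey circles are the list made from both replicates, triangles replicate 1 and squares replicate 2, filled where thresholded; black bars are gene bodies. Filled symbols appear for sog, downstream, for brk, upstream, and once for rho, and ind has no symbol.

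Territories differed widely among the 8 genes, and a gene with a longer territory can collect more summits. The territory was 47.7 kb for vnd, 28.8 kb for sog, 24.3 kb for sim, 17.1 kb for rho, 16.9 kb for tld and 16.2 kb for brk. It was 5.7 kb for zen and 3.5 kb for ind, against a median of 4.25 kb over all genes. In the decile of all genes with the longest territories, where sog, sim and vnd fall, 45.5% had a peak. In the next decile, with brk, rho and tld, 35.0% had one. The share was 16.5% in the decile that holds zen, 18.7% in the one that holds ind and 11.7% in the shortest. The vnd territory, longer than that of 97.5% of genes, held no thresholded summit. The share of genes with at least 3 peaks was not taken by decile.

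**Figure D4:**
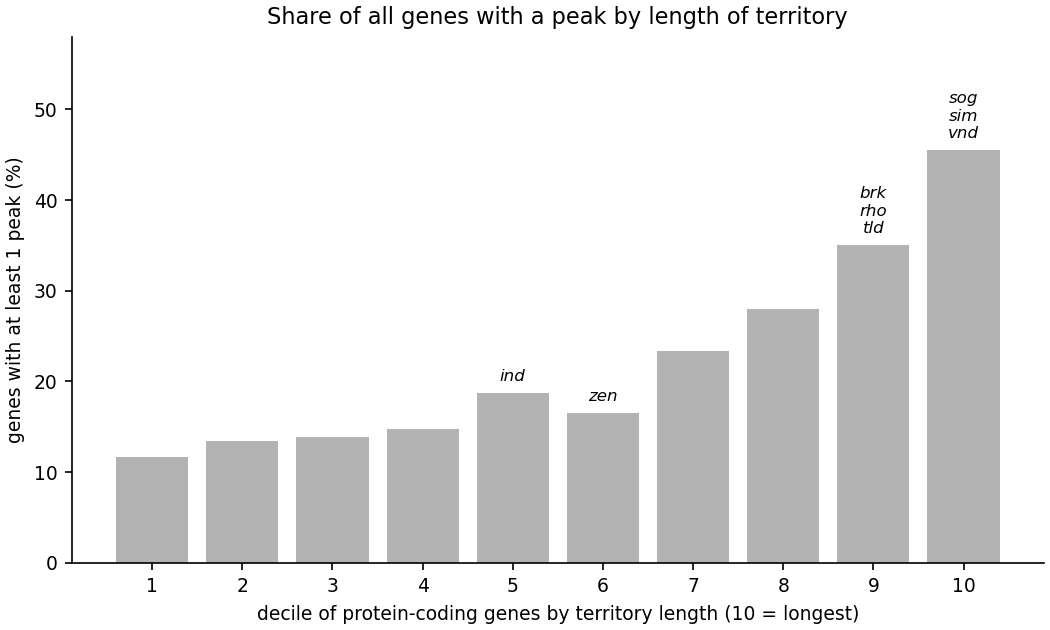
Percent of protein-coding genes with at least 1 peak (y axis) in each decile of genes ordered by territory length (x axis, 10 the longest), with the 8 genes named above the bar of their decile. The share runs from 11.7% in the lowest decile to 45.5% in the highest, and 6 of the 8 genes are in the upper 2 deciles.

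Motifs of known regulators were searched within 100 bp of the summits. CAGGTG, the E-box that Snail-family proteins recognise, was in none of the 6 windows, and in 5.28% of all 4397. CAGGTA, which differs in its last letter and is the core of the site of the early activator Zelda, was in 1 of 6, from 6 to 11 bp after the sog 2 summit, and in 4.03% of all. ACAGTG was in 1 of 6, with 2 copies in brk 2, and in 20.2% of all windows. GTGGGAA, which occurs in sites of the Notch pathway factor Suppressor of Hairless, was in brk 2 alone, with 2 copies on opposite strands, and in 1.91% of all. GGGNNNNCC, a pattern that covers Dorsal sites, was in none and in 7.30% of all. A match is a description of letters, and no match in a window says nothing of the factor.

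The GC content of the same 201 bp windows was 44.8% for sog 2 and 48.3% for brk 2, higher than in 92.2% and 96.0% of all windows. It was 37.3% for sog 1, 34.8% for brk 3, 32.8% for brk 1 and 28.9% for sog 3, against a median of 33.3%. The windows of sog 2 and brk 2, which held all matches, were thus those richest in GC, and the part of base composition in the matches was not tested.

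Genes of the surrounding pathways were counted by the same rule, over 4 lists with 42 genes, of which 24 had a peak (57.1%, against 22.1% of all genes). By nearest start site alone the count was 20 (47.6%, against 20.2%). The lists were chosen with earlier results of these data known, so these shares are only a description. Their median territory was 15.6 kb, also above the median of all genes. In the decile of all genes with territories of 12.39 to 21.86 kb, 35.0% had a peak, and the part of territory in the count was not tested. Of the maternal Toll pathway, which sets the Dorsal gradient, 5 of 11 had a peak. Their strongest signals were 314.6 at cactus (cact), the inhibitor that holds Dorsal in the cytoplasm, and 230.6 at the kinase gene pelle (pll). The receptor gene Toll (Tl) had 91.1, the sulfotransferase gene pipe (pip) 61.2 and dorsal (dl) itself 54.5. The pip peak lay in the pip gene body but nearer to the start site of fal. The pll peak, at -85 bp, lay in an intron of the gene TfIIA-L. In the replicates alone 2 (replicate 1) and 3 (replicate 2) of the 11 genes had one, against 17.1% and 18.3% of all genes. These were cact and pll in both replicates and pip in replicate 2 only. On the replicates' own lists Tl and dl had no peak.

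Of 10 other zygotic genes of the ventral and lateral embryo, 8 had a peak, and 5 had one by nearest start site alone. The only peaks of twi, vn and Egfr, named here after their values were seen, lay in their gene bodies but nearer to the start site of another gene. The strongest were 586.0 at spitz (spi), the EGF receptor ligand that Rhomboid releases, and 496.7 at argos (aos), a secreted inhibitor of that ligand. The FGF ligand gene thisbe (ths) had 282.9, the neural Sox gene SoxN 249.9 and the dorsal-column homeobox gene Drop (Dr) 172.4. The 2 without a peak, picked out after their values were seen, were pyr and snail (sna), which had a peak in replicate 2 alone. In the replicates alone 7 (replicate 1) and 9 (replicate 2) of the 10 genes had a peak.

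Of the Dpp pathway, 6 of 11 genes had a peak. The strongest were 400.1 at schnurri (shn), a zinc finger cofactor that represses brk downstream of Dpp and had 12 peaks, and 322.0 at the Smad gene Mad. The ligand gene dpp had 267.8, the BMP-binding protein gene crossveinless 2 (cv-2) 182.1 and the type I receptor gene thickveins (tkv) 101.2. The strongest cv-2 peak lay in its own gene body but nearer to the start site of CG17974. The 5 without a peak were scw, tsg, tok, sax and Med, named after their values were seen. In the replicates alone 5 (replicate 1) and 6 (replicate 2) of the 11 genes had a peak.

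Of 10 amnioserosa and dorsal ectoderm genes, 5 had a peak. The T-box genes Doc2 and Doc1 had 326.0 and 121.4, the FOG-family gene u-shaped (ush) 249.3, the zinc finger gene pebbled (peb) 98.9 and the LIM-homeobox gene tailup (tup) 94.4. The 5 without a peak, named after their values were seen, were zen2, pnr, Doc3, Ance and srp, of which srp had a peak in replicate 2 alone. In the replicates alone 5 (replicate 1) and 6 (replicate 2) of the 10 genes had a peak.

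**Figure D5:**
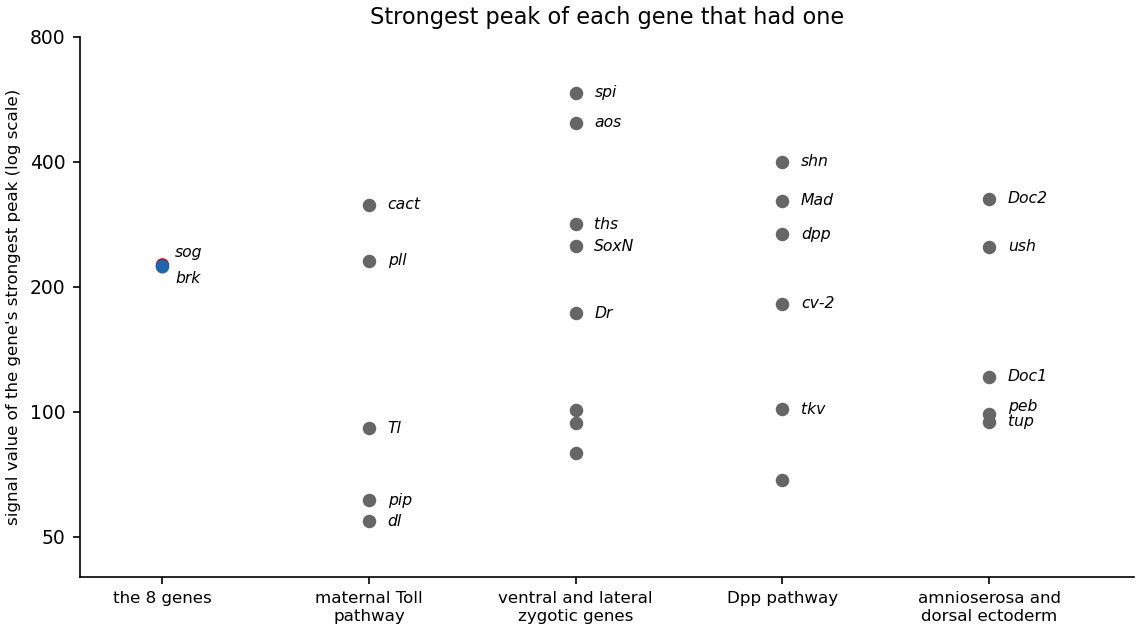
Signal value of the strongest peak (y axis, log scale) for each gene with a peak, in the 8 genes and in 4 pathway lists (x axis); the 5 highest of each list are named. The sog and brk points, at 225.6 and 223.3, lie inside the range of the lists, which runs from 54.5 to 586.0.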

How the data were processed

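The samples are 2 biological replicates of 1 group, per the labels. No source used here names the aligner or the peak caller. Descriptions deposited alongside the peaks place them in dm6 and say that replicate and control alignments went into them. Each peak has a signal value and a score deposited by the authors (the unit of the signal is not stated, and no thresholded score was under 830). For ranked entries the authors also deposited the -log10 of the global IDR; all thresholded peaks had at least 2, an IDR of 0.01. The list named conservative was the main list. It has 4419 peaks, 4397 of them on the 7 arms used. In the ranked lists of the whole series 8 columns of per-replicate values were not used. Replicate values come from each replicate's own lists, by overlap of at least 1 bp, taking the strongest entry.

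Annotation was Ensembl release 115 (BDGP 6.54), and sequence was the RefSeq Release 6 assembly. All 8 genes and all 42 pathway genes matched by symbol. Territory is the length over which a gene has the nearest protein-coding start site. Positions are 1-based. Motifs were searched on both strands in windows of 201 bp. Depth is unknown, so the precision of a signal value cannot be given. No test was made, because there is 1 group. All 8 genes are named with all peaks, and from each pathway list the genes with a peak, at most 5 by signal. Genes, lists and motifs were chosen with earlier results of these data known. Nearest start site, overlap and motif functions were tested on simulated data, and overlap counts were checked with bedtools 2.31.1. Alternatives were other lists, assignment rules, overlap rules and windows. The work used pandas 2.3.3, numpy 2.4.6, matplotlib 3.10.9 and scipy 1.17.1 under Python 3.11.15.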

Additional observations from a re-analysis of the deposited data

How the results depend on the processing

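Under 8 alternatives sim, vnd, ind, zen and tld had no thresholded peak. With the list of 1 replicate alone, which leaves out the other, the genes with a peak numbered 2 to 3 and the peaks 6 to 7. None of these peaks held CAGGTG. The pathway genes with a peak numbered 24 without replicate 1 (57.1%, against 18.3% of all genes). They numbered 19 without replicate 2 (45.2%, against 17.1%). Without replicate 1, brk had 1 peak and rho had 1; without replicate 2, brk had 5. By gene body alone 1 gene and 3 peaks were left, all at sog, because the brk peaks lie outside brk. By a limit of 1000 bp to a start site 1 gene and 1 peak, brk 1, were left, with 12 pathway genes (28.6%, against 19.1% of all genes by that rule) and a share on both replicates' lists of 100%. Keeping only the stronger peaks, those above the median signal, left 14 pathway genes (33.3% against 13.4%). By gene body alone there were 17 (40.5% against 11.1%), and by nearest start site alone 20 (47.6% against 20.2%). With the ranked lists of the replicates in place of the thresholded ones, the share on both lists was 100%. Windows of 250 bp gave 1 peak of 6 with CAGGTG (14.9% of all peaks), 3 with ACAGTG (35.3%) and 2 with GGGNNNNCC (23.3%); windows of 50 bp gave none with ACAGTG (6.37%). The other list, the nearest start site alone and the nearest start site of any gene gave 2 genes and 5 to 6 peaks. No paired analysis was possible because there is 1 group. Limits are the unknown depth, the unstated unit of the signal and that no untagged sample was analysed here.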
